A study of Homo sapiens with 6 samples.

Results

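The proteasome genes of MDA-MB-231 cells, a cultured human breast cancer line of the triple-negative type, were compared between cultures grown on fructose and on glucose. The members were all genes whose array annotation gives a single symbol of the PSM family, from PSMA to PSMG with a number, pseudogenes and antisense genes left out. They came to 45 of the 18404 genes named on the array, with 46 of the 28230 probe sets tested, and the brightest probe set stood for each gene. PSMC5, PSMD7 and PSMD13 were not analysed here. The fructose group had 3 arrays of cells kept in 10 mM fructose for 25 days, and the glucose group had 3 arrays of cells kept in 25 mM glucose for as long. Each array held total RNA of a separately adapted batch, harvested at about the same confluency and time after a change of medium. Both groups were the same line, with no transgene or added agent in the labels. The sugar, its concentration and the lack of glucose changed together and cannot be told apart. The title frames the comparison as one of restricted glycolysis.

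The proteasome is the large protease that degrades proteins tagged with ubiquitin. Its barrel-shaped 20S core has outer rings of alpha subunits, which form the gate, and inner rings of beta subunits, some of which cut. The 19S cap binds ubiquitin chains, removes them and threads the substrate into the core: its base holds the ATPases and its lid the deubiquitinase. Cells that present peptides, or that meet interferon, can replace the 3 cutting beta subunits with immunosubunits. Other caps open the core without ubiquitin, and dedicated chaperones build each part.

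Over all arrays, TXNIP, a glucose-induced brake on glucose uptake, was the single gene that passed (limma, Benjamini-Hochberg adjusted p = 4.70e-05), at 14.0-fold lower in fructose. On the first principal component (28.8% of the variance) fructose replicates 1 and 3 stood at 17.9 and 19.3 and fructose replicate 2 at 5.67, against -13.5 to -14.8 for the glucose arrays. Of 6 mesenchymal markers of the line, VIM, CD44, AXL and CAV1 read 1512 to 2980 on every array, while ZEB1 read 225 to 251 and TGFBI was dim, at 22.3 to 31.0. The 6 luminal markers, with the receptors ESR1 and PGR, read 5.99 to 92.9, GATA3 being the brightest at 61.5 to 92.9. Precision is limited by the number of arrays. The median standard error of a member's log2 difference was 0.07. RNA came from whole cultures, so fewer cells with a transcript and less of it per cell cannot be told apart.

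No member passed the test in the comparison of fructose with glucose. The share of all probe sets called was 0.00354%, and the smallest adjusted p of a member was 0.19. The largest differences were in opposite directions in 2 parts of the complex. The immunosubunits PSMB10, PSMB8 and PSMB9 were higher in fructose by 1.38-fold, 1.27-fold and 1.17-fold. The lid subunit PSMD12 and the base ATPase PSMC6 were lower by 1.22-fold and 1.18-fold. Over all 28 measured constitutive subunits of the core and cap, PSMD12 and PSMC6 included, the 95% intervals ran at the most from 1.35-fold lower to 1.2-fold higher. Their differences had a median of -0.05 and an SD of 0.09 (log2), where a single subunit had a median standard error of 0.07. The 4091 probe sets dropped as controls had a median difference of -0.06, and all tested probe sets one of 0.02.

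In the standard fit, the share of members lower without overlap was above the background, and the other shares lay nearer to it. At an unadjusted p under 0.05, 3 of 45 members were higher (6.67%, against 7.65% of all probe sets) and 4 were lower (8.89%, against 5.43%). All fructose arrays lay above all glucose arrays for 4 members (8.89%, against 11.4%). They lay below all glucose arrays for 11 members (24.4%, against 8.81%). Most members are bright, and among probe sets above the median level the share lower without overlap was 13.6% and the share lower at an unadjusted p under 0.05 was 7.72%. Most members stood well above that median, so these shares are not matched to them in brightness. By sign alone 21 members were higher and 24 lower, and 17 were higher once each array was centred on its median. Of the 28 constitutive subunits 18 were lower by sign (64.3%, against 43.8% of all probe sets) and 10 higher. Without overlap 9 of the constitutive subunits were lower (32.1%) and 1 was higher (3.57%). Without fructose replicate 2 the members at an unadjusted p under 0.05 numbered 4 (8.89%, against 14% of all probe sets), and without glucose replicate 1 they numbered 3 (6.67%, against 10.3%). Without any 1 of the other arrays they numbered 5 or 6 (11.1% to 13.3%, against 10.4% to 11.5%). The median member difference was -0.02, against 0.02 for all probe sets.

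The result depended on how limma modelled the variance. With an intensity trend and robust variances 2 members passed, PSMD12 (lower, adjusted p = 0.020) and PSMB10 (higher, adjusted p = 0.047). That fit called 0.914% of all probe sets as higher and 0.762% as lower. At an unadjusted p under 0.05 it gave 14 of 45 members (31.1%, against 15% of all probe sets). With 16 added to each value before the logarithm, PSMD12 passed alone (adjusted p = 0.0495), where 0.383% of all probe sets were called as higher and 0.333% as lower. Among probe sets above the median level alone, 2.3% were called and PSMD12 and PSMB10 missed narrowly, at adjusted p values of 0.051 and 0.059.

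**Figure D1:**
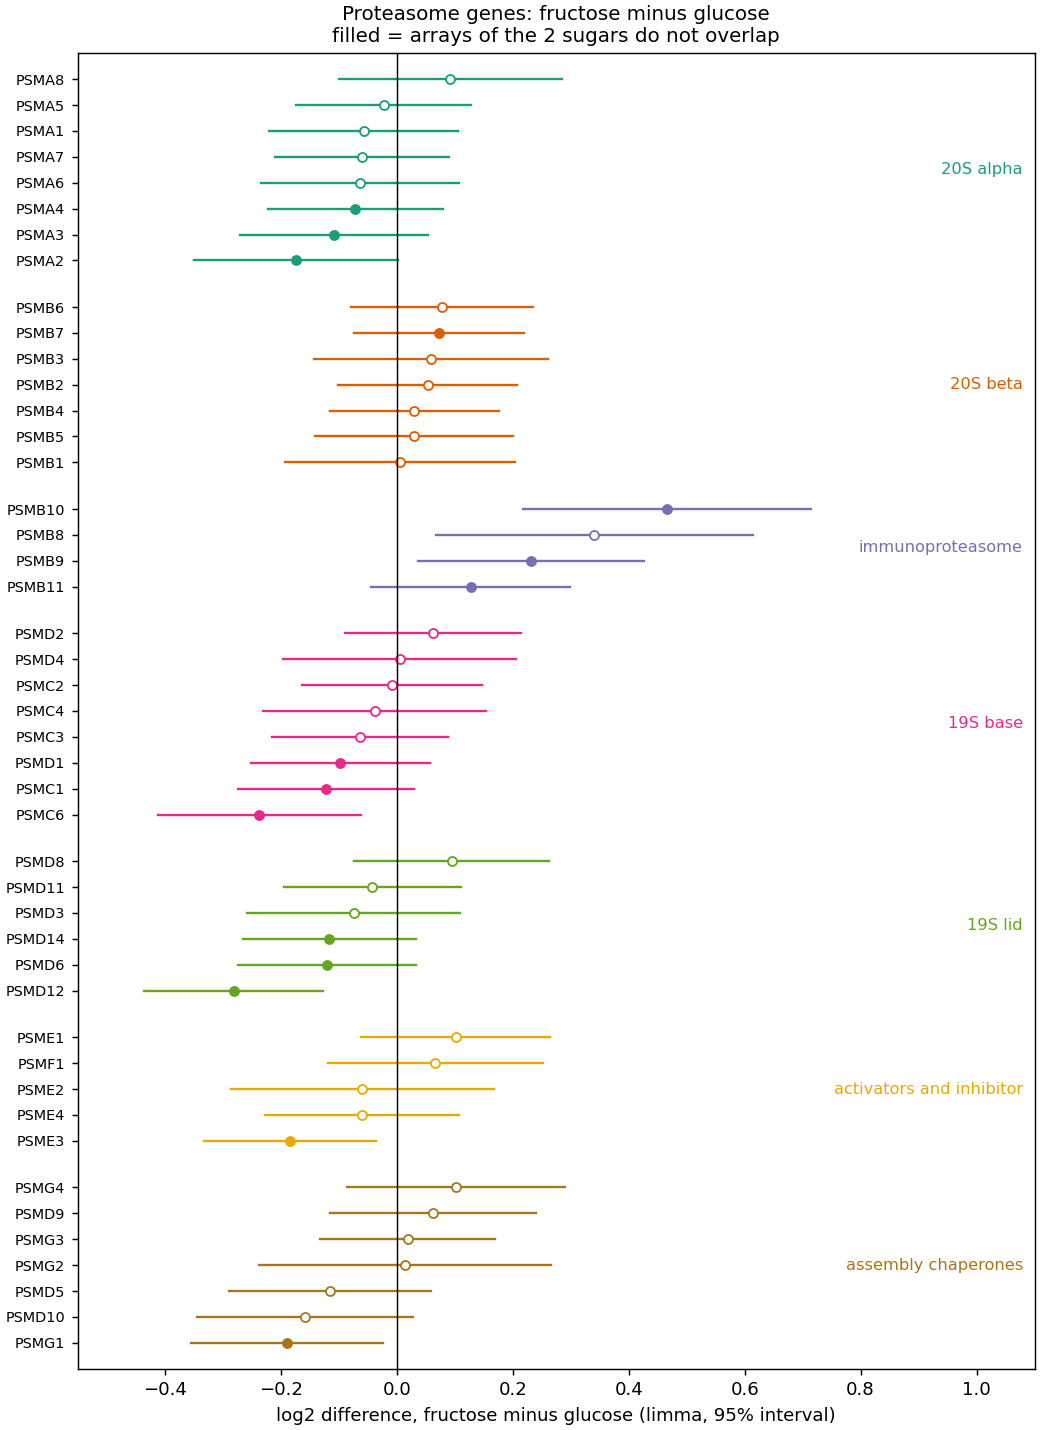
Log2 difference between fructose and glucose for each of the 45 proteasome genes, grouped by place in the complex, as limma's estimate (circle) with its 95% interval (bar). Filled circles mark genes whose fructose and glucose arrays do not overlap; PSMB10 lies farthest right at 0.47 and PSMD12 farthest left at -0.28.

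The immunosubunits were the class with the largest median difference, 0.29 over 4 genes, all higher in fructose. PSMB10 replaces the trypsin-like subunit of the core. On the linear scale of RMA, which corrects for background and evens out the arrays, it read 148, 157 and 128 on the fructose arrays, against 101, 96.6 and 115 on the glucose arrays. The groups did not overlap, and fructose replicate 3 lay nearest to glucose. The means were 144 ± 14.9 in fructose and 104 ± 9.56 in glucose (SD, n = 3 each), a log2 difference of 0.47 (SE 0.11, 95% interval 0.22 to 0.72, limma adjusted p = 0.19).

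PSMB8 replaces the chymotrypsin-like subunit. It read 203, 191 and 158 on the fructose arrays, against 142, 134 and 159 on the glucose arrays. Fructose replicate 3 therefore lay within the glucose range, while the other fructose arrays lay above it. The log2 difference was 0.34 (SE 0.12, 95% interval 0.07 to 0.61, limma adjusted p = 0.30). PSMB9, which replaces the caspase-like subunit, read 490.3, 542 and 468 on the fructose arrays, against 401, 439 and 436 on the glucose arrays. Its groups did not overlap, with a log2 difference of 0.23 (SE 0.08, 95% interval 0.04 to 0.43, limma adjusted p = 0.31). PSMB11, the subunit of the thymus proteasome, was at the dim end of the arrays, at 7.37, 7.60 and 8.26 in fructose and 6.86, 7.21 and 7.17 in glucose. Without PSMB11 and the testis subunit PSMA8, the median of the immunosubunits was 0.34.

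The constitutive subunits with the same activities differed less. PSMB7, the trypsin-like subunit, read 2306, 2358 and 2351 in fructose, against 2228, 2170 and 2269 in glucose, with no overlap and a log2 difference of 0.07 (95% interval -0.07 to 0.22). PSMB5, the chymotrypsin-like subunit and the main target of bortezomib, read 824, 832 and 754 in fructose, against 782, 762 and 815 in glucose, and the groups overlapped. Its difference was 0.03 (95% interval -0.14 to 0.20). PSMB6, the caspase-like subunit, read 2394, 2475 and 2385 in fructose, against 2260.3, 2218 and 2395 in glucose, and the groups overlapped, with a difference of 0.08 (95% interval -0.08 to 0.23).

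Each immunosubunit was then set against its constitutive partner within an array, which cancels shifts that the array's probe sets share. The PSMB10 to PSMB7 ratio, relative to its glucose mean, was 0.45, 0.51 and 0.22 (log2) in fructose, against -0.04, -0.07 and 0.12 in glucose. The PSMB8 to PSMB5 ratio was 0.42, 0.32 and 0.19 in fructose, against -0.02, -0.07 and 0.09 in glucose. Both ratios were higher on each fructose array than on any glucose array. Their changes were 1.31-fold and 1.24-fold, each with p = 0.10 in an exact two-sided permutation test over the 6 arrays, the smallest p that 3 against 3 allows, and 0.15 when adjusted over the 3 pairs. The PSMB9 to PSMB6 ratio overlapped between the sugars, with a change of 1.11-fold and an exact permutation p of 0.20.

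**Figure D2:**
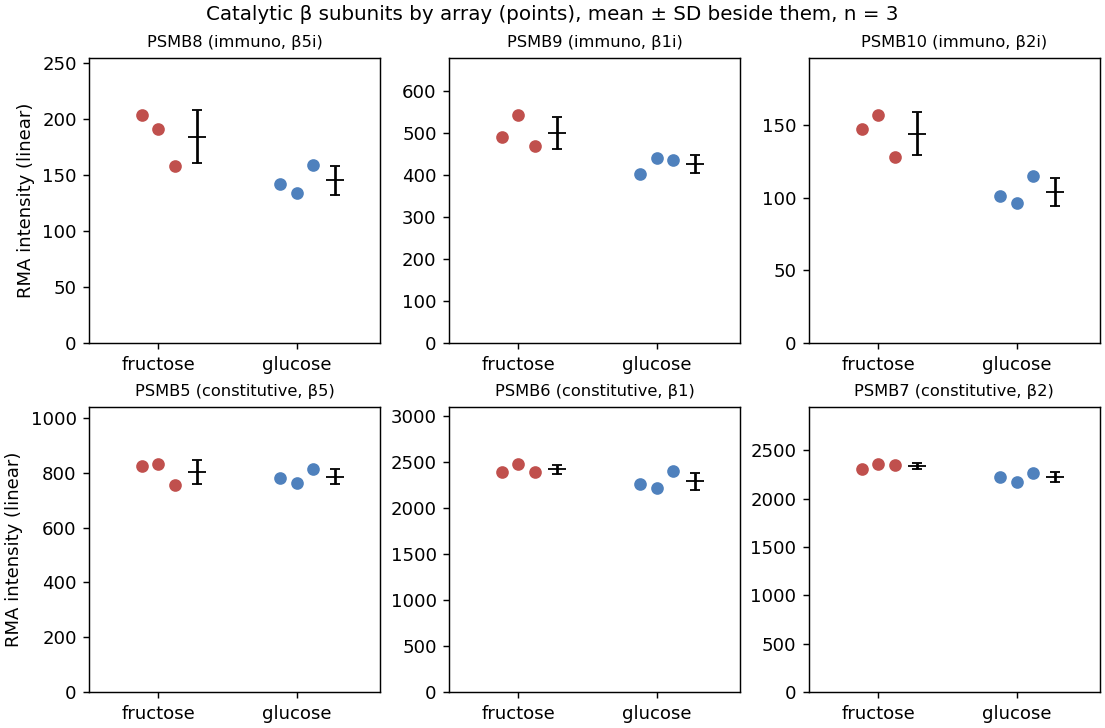
RMA intensity (linear scale, from 0) of the immunosubunits (top row) and their constitutive partners (bottom row) on each fructose and glucose array, as points for replicates 1 to 3 from left to right, with the mean ± SD (n = 3) beside them. PSMB10 and PSMB9 separate without overlap, and fructose replicate 3 of PSMB8 reads 158 beside a glucose array at 159.

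Genes of peptide presentation that work with the immunoproteasome were taken as a list of 10, of which 9 were named on the array. None passed, 7 were higher in fructose and 2 lower, and the median was 0.09. TAP1, which pumps the cut peptides into the endoplasmic reticulum and lies head to head with PSMB9, read 188, 199 and 165 in fructose, against 157, 160.3 and 153 in glucose, a log2 difference of 0.23 without overlap. TAPBP, the tapasin that loads them, was higher by 0.23 (578, 663 and 608 in fructose, against 519, 535 and 524 in glucose). B2M, the light chain of MHC class I, differed by -0.07 and TAP2 by 0.03. The interferon-regulated factor IRF1 differed by -0.09 (95% interval -0.44 to 0.25) and NLRC5, an activator of MHC class I genes, by 0.03, both at intensities of 36.8 to 53.6. Of 5 leukocyte markers, the pan-leukocyte gene PTPRC read 4.66 to 5.76 over all arrays and CD3E 12.4 to 18.1. HCLS1 read 7.62 to 10.2 and LYZ 20.9 to 30.8. CD68, which is also a lysosomal protein of other cells, read 1655 to 1882 in fructose and 1539 to 1620.2 in glucose.

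The bases upstream of PSMB9 and PSMB10 are shown because these immunosubunits separated by sugar, and those of PSMD12 because it differed the other way. Each run is the 250 bases before the annotated start in RefSeq, build GRCh38.p14, written 5′ to 3′ on the gene's strand. Capitals mark matches to any of 3 motifs searched on both strands. These were the core of the antioxidant response element bound by NRF1 and NRF2 (TGANNNNGC), of the interferon-stimulated response element (GAAA, a gap of 2 bases, then GAAA) and of the interferon gamma activated site (TTCNNNGAA). PSMB9 lies at chr6:32853942-32854191 (plus strand), PSMB10 at chr16:67936851-67937100 (minus strand) and PSMD12 at chr17:67366578-67366827 (minus strand).
PSMB9: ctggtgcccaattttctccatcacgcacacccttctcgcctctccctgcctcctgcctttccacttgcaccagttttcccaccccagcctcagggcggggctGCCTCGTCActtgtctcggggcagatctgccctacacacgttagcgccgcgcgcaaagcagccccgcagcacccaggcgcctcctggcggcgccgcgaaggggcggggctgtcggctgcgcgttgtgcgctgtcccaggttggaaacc
PSMB10: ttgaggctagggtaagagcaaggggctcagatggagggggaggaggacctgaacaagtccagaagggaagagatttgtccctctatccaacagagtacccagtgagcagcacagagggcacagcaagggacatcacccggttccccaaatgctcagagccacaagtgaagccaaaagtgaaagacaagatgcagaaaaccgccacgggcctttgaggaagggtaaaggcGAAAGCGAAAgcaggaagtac
PSMD12: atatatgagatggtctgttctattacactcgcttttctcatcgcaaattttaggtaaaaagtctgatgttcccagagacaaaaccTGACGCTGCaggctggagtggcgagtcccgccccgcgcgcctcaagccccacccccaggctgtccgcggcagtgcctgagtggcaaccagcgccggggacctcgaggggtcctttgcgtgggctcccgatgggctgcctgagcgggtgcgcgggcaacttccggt

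The PSMB10 window held the interferon-stimulated core GAAAGCGAAA, whose first base lies 21 bases before the start. The PSMB9 window held the antioxidant core on the opposite strand (GCCTCGTCA, first base 148 bases before the start), and the PSMD12 window held it on the gene's strand (TGACGCTGC, first base 165 bases before the start). PSMB9 and PSMD12 differed in opposite directions, and the antioxidant core lay upstream of 24 of the 39 member genes with a promoter. Its part in either difference was not tested. RefSeq promoters were found for 39 of the 45 members, with 47 windows. The antioxidant core was in 28 of the 47 windows (59.6%), against 35.2% of all 35116 windows. The interferon-stimulated core was in 5 (10.6%, against 3.02%) and the interferon gamma core in 7 (14.9%, against 6.57%). A match is a match of letters and no evidence of binding.

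In the 19S lid, 5 of 6 measured subunits were lower in fructose and the median was -0.10. None passed in the standard fit, and 3 of them separated by sugar. These 3 were lower without overlap, as were 8.81% of all probe sets and 13.6% of those above the median level. PSMD12, a scaffold subunit of the lid, read 684, 677 and 714 in fructose, against 862, 847 and 813 in glucose. The gap between the groups was wider than the range within either. The means were 692 ± 19.6 in fructose and 840.5 ± 25.0 in glucose (SD, n = 3 each), a log2 difference of -0.28 (SE 0.07, 95% interval -0.44 to -0.13, limma adjusted p = 0.19). PSMD14, the deubiquitinase that removes the ubiquitin chain, read 879.5, 892 and 906 in fructose, against 999.6, 957 and 946 in glucose, a difference of -0.12. PSMD6 read 896, 910.1 and 847 in fructose, against 953, 977 and 953 in glucose, and also differed by -0.12. Both separated without overlap. PSMD3 differed by -0.07 and PSMD11, which helps hold lid and base together, by -0.04. PSMD8 was the lid subunit that was higher, by 0.10 (1371, 1469.6 and 1310.0 in fructose, against 1298, 1265 and 1319 in glucose).

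In the 19S base, 6 of 8 measured subunits were lower, joined by PSMD4 at -0.02 once each array was centred, and the median was -0.05. PSMC6, an ATPase of the ring that unfolds substrates, read 635, 662 and 671 in fructose, against 769, 727 and 826 in glucose. Its groups did not overlap, with a log2 difference of -0.24 (SE 0.07, 95% interval -0.41 to -0.06, limma adjusted p = 0.27). A further PSMC6 probe set read 440.0, 415 and 401 in fructose, against 478, 476 and 474 in glucose, a difference of -0.19. The 10 named probe sets next to this one in number include no gene of chromosome 14, where PSMC6 lies, and RefSeq lists 3 PSMC6 pseudogenes, so it may read a copy.

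The PSMC1 probe set has the same limit. PSMC1 is another ATPase of the ring, on chromosome 14, but all 10 neighbours of its probe set are genes of chromosome 3, and RefSeq lists 13 PSMC1 pseudogenes. It read 1876, 1959.9 and 2019 in fructose, against 2118, 2143 and 2107 in glucose, a difference of -0.12 without overlap. Without it the median of the base was -0.04. The other base ATPases were closer to 0, with PSMC3 at -0.06, PSMC4 at -0.04 and PSMC2 at -0.01. The scaffold PSMD1 differed by -0.10 (611, 652 and 618 in fructose, against 675, 683 and 655 in glucose), without overlap. PSMD2, the other large scaffold, was at 0.06 and the ubiquitin receptor PSMD4 at 0.00 (95% interval -0.20 to 0.21).

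The alpha and beta rings of the 20S core lay on opposite sides of 0 by small amounts. Of 8 alpha subunits 7 were lower in fructose, with a median of -0.06, and of 7 constitutive beta subunits 7 were higher, with a median of 0.05, although PSMB1 turned to -0.02 after each array was centred on its median. With that centring the alpha median stood at -0.09. By sign, 43.8% of all probe sets were lower and 56.2% higher. None of either ring passed or reached an unadjusted p under 0.05. PSMA2 had the largest difference among them, -0.17 (95% interval -0.35 to 0.00), with 778, 843 and 832 in fructose, against 943, 864 and 961 in glucose. PSMA3, whose tail helps to close the gate, differed by -0.11 (1035, 1037 and 951 in fructose, against 1083, 1108 and 1064 in glucose). PSMA4 differed by -0.07, and these 3 of 8 alpha subunits were lower without overlap. So were 8.81% of all probe sets and 13.6% of those above the median level.

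The other core subunits overlapped between the sugars, save PSMB7. PSMA1, PSMA5, PSMA6 and PSMA7 differed by -0.02 to -0.06. PSMA8, the testis subunit that takes the place of PSMA7, was at the dim end, at 5.75 to 6.69 in fructose and 5.88 to 6.01 in glucose. Of the beta subunits that do not cut, PSMB3 was at 0.06, PSMB2 at 0.05, PSMB4 at 0.03 and PSMB1 at 0.01. PSMB3 shows the spread within the fructose group: it read 1898, 2133 and 1777 there, against 1836, 1807 and 1920.2 in glucose.

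**Figure D3:**
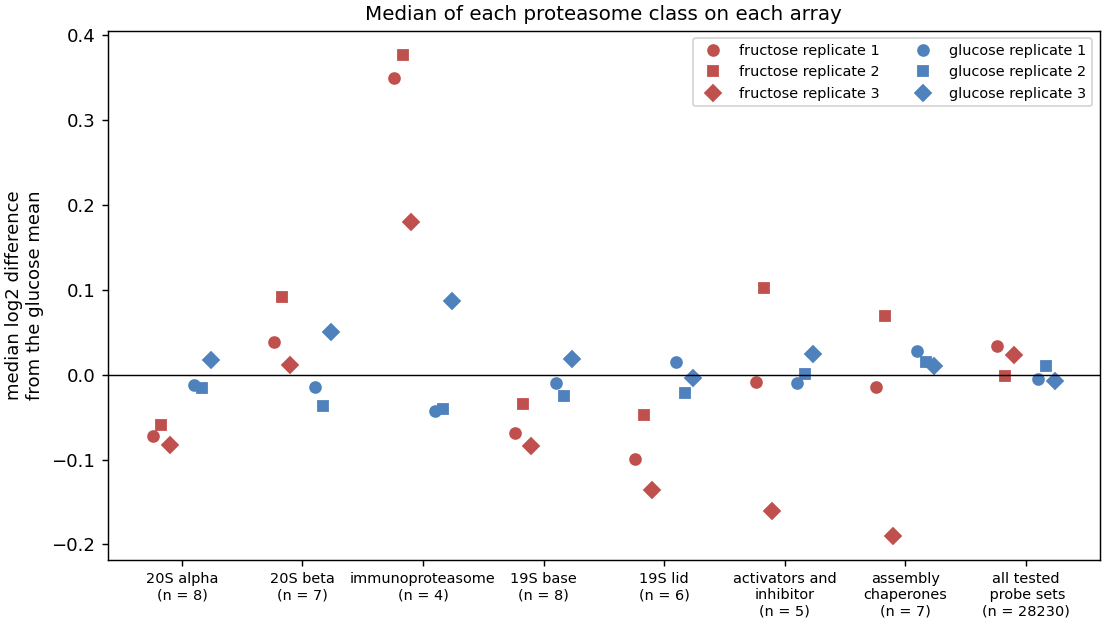
Median over the genes of each proteasome class of the log2 difference from the glucose mean, on each of the 3 fructose and 3 glucose arrays, with all tested probe sets at the right. The alpha subunits, the base and the lid lie below 0 on every fructose array, while the activators run from -0.16 on fructose replicate 3 to 0.10 on fructose replicate 2.

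The activators and the inhibitor did not move together. PSME3, the nuclear activator that opens the core without ubiquitin, read 687, 674 and 661 in fructose, against 775, 745 and 777 in glucose. Its groups did not overlap, with a log2 difference of -0.18 (SE 0.06, 95% interval -0.33 to -0.03, limma adjusted p = 0.30). PSME1, a subunit of the interferon-inducible activator PA28, read 822, 843 and 762 in fructose, against 749, 746 and 767 in glucose, a difference of 0.10 with overlap. Its partner PSME2 read 849.8, 959.96 and 775 in fructose, against 846, 899 and 940.4 in glucose, a difference of -0.06 (95% interval -0.29 to 0.17). RefSeq lists 6 PSME2 pseudogenes, and the part of such copies in the value was not tested. PSME4, the activator PA200, differed by -0.06 and PSMF1, the regulator PI31, by 0.07.

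Of 7 measured assembly chaperones 4 were higher and 3 lower, with a median of 0.01, and after centring PSMG2 and PSMG3 turned to the lower side. PSMG1, which with PSMG2 builds the alpha ring, read 287, 278 and 260.4 in fructose, against 320.4, 317 and 303 in glucose. Its log2 difference was -0.19 (SE 0.07, 95% interval -0.35 to -0.02, limma adjusted p = 0.33), without overlap. PSMG2 itself differed by 0.01, with 336, 325 and 260.4 in fructose, against 292, 308 and 307 in glucose. Fructose replicate 3 was the lowest array for both. PSMG3 and PSMG4, the other pair of alpha ring chaperones, differed by 0.02 and 0.10. Among the PSM symbols, the chaperones of the base were PSMD10, also called gankyrin, at -0.16, PSMD5 at -0.11 and PSMD9 at 0.06. POMP, the maturation factor of the beta ring outside the PSM symbols, read 2056, 2066 and 2097 in fructose, against 2309, 2234 and 2163 in glucose, a difference of -0.11 without overlap.

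The class medians were also taken array by array. The immunosubunits stood at 0.35, 0.38 and 0.18 above the glucose mean on fructose replicates 1, 2 and 3, against -0.04, -0.04 and 0.09 on the glucose arrays. The alpha subunits stood at -0.07, -0.06 and -0.08 on the fructose arrays, against -0.01, -0.02 and 0.02 on the glucose arrays. For the lid these medians were -0.10, -0.05 and -0.14 on the fructose arrays, against 0.01, -0.02 and 0.00 on the glucose arrays. The chaperones ran from -0.19 on fructose replicate 3 to 0.07 on fructose replicate 2, on both sides of the glucose arrays. Without fructose replicate 3 the median over the members was 0.01. The members with no overlap then numbered 25 (55.6%, against 30.3% of all probe sets), and over all arrays they numbered 15 (33.3%, against 20.2%). Leaving out any of the other arrays also raised this count, to between 18 and 21 (40% to 46.7%, against 29% to 33.3% of all probe sets). Fewer arrays overlap less easily, which raised the share of all probe sets as well. The count also moved with all arrays kept. It was 21 after repeated quantile normalization (46.7%, against 20.4% of all probe sets). After each array was centred on its median it was 13 (28.9%, against 17.6%).

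Genes that work with the proteasome were taken as further lists. Of 13 partners outside the PSM symbols none passed in the standard fit, 3 were higher and 10 lower, with a median of -0.05. UCHL5, a deubiquitinase bound to the cap, read 341, 301 and 328 in fructose, against 389, 400.1 and 389 in glucose. Its log2 difference was -0.28 (SE 0.07, limma adjusted p = 0.21), without overlap, and it passed with the intensity trend and robust variances (adjusted p = 0.046). USP14, the other deubiquitinase that docks on the cap, read 614, 622 and 611 in fructose, against 698, 684 and 732 in glucose, a difference of -0.19 without overlap. Both enzymes trim ubiquitin before degradation. ZFAND2A, a stress-induced proteasome cofactor, was higher by 0.23. The cap subunits ADRM1 and SEM1 differed by 0.03 and -0.01.

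Of 9 named genes of proteasome transcription 7 were higher and 2 lower, with a median of 0.10, and none passed in the standard fit. NFE2L1, which encodes the factor NRF1 that raises proteasome genes when the proteasome is inhibited, differed by 0.10 (438, 415 and 429.6 in fructose, against 388, 381 and 429.2 in glucose). MAFG, a small MAF that pairs with it, read 416, 411 and 424 in fructose, against 332, 333 and 360.4 in glucose. It was higher by 0.29 (SE 0.07, limma adjusted p = 0.20) and passed with the intensity trend and robust variances (adjusted p = 0.032). NFYA, a subunit of the CCAAT-binding factor, was also higher by 0.29, without overlap. NGLY1, which strips glycans from NRF1 as the factor is activated, read 254, 247 and 238 in fructose, against 214, 213 and 216 in glucose, a difference of 0.20 without overlap. NFE2L3 differed by -0.06 and NFYB by -0.01.

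The 8 named shuttles and unfoldase genes had a median of 0.02, and 6 were higher and 2 lower. Their probe sets were not checked against their neighbours in number, as those of the members were. Among them FAF2 read 5305 to 5788, brighter than 99.9% of tested probe sets, and what its probe set reads was not tested. VCP, which extracts substrates from membranes and complexes, differed by 0.01. UBQLN2 was the highest of them at 0.10 and the shuttle RAD23B the lowest at -0.10. UBQLN1, at -0.09, had the smallest limma p of the list and was the only gene of it without overlap. Of the ubiquitin list, 3 genes were named. The polyubiquitin gene UBB differed by 0.02, the activating enzyme UBA1 by 0.07 and the alternative activating enzyme UBA6 by -0.16, the last without overlap.

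**Figure D4:**
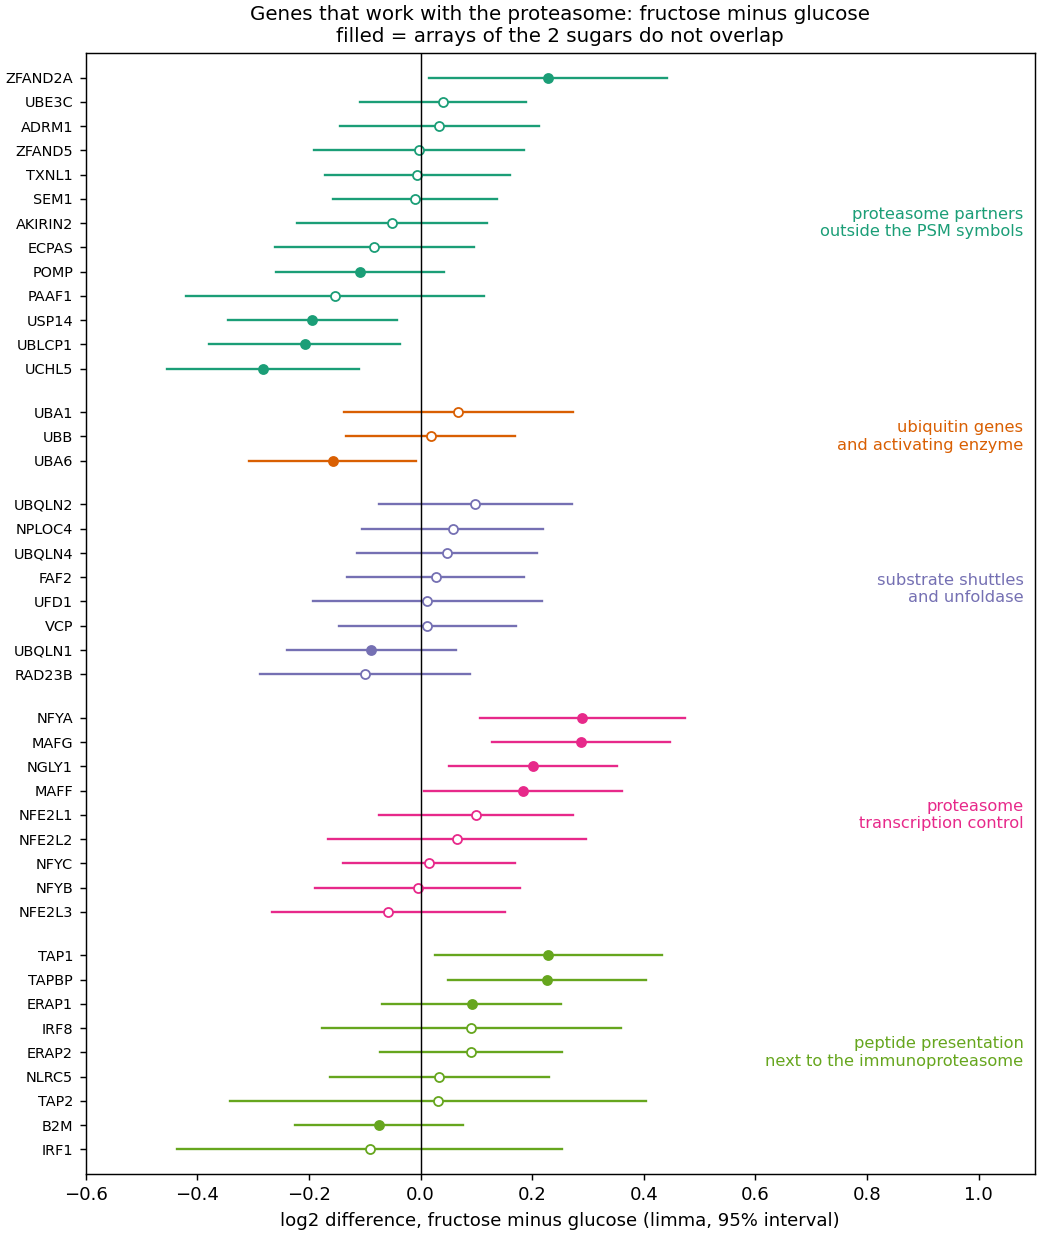
Log2 difference between fructose and glucose (limma's estimate with its 95% interval) for genes that work with the proteasome, by list. Filled circles mark genes whose fructose and glucose arrays do not overlap; UCHL5 is at -0.28, and MAFG and NFYA are both at 0.29.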

How the data were processed

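Total RNA of 6 cultures was hybridised to 1 array each. Per the submitters' processing notes, RMA made the deposited intensities, and its version and the genome build were not stated. The values reach 9287, so they were taken as linear and converted to log2. Probe sets numbered below any with a gene (4091 of 32321) were treated as controls and dropped. The platform annotation gave 1 gene for 19158 of the rest. All 45 members matched RefSeq by gene number. Fructose minus glucose was fitted by lmFit and eBayes (limma 3.58.1, R 4.3.3; two-sided, no covariate) across 28230 probe sets, adjusted by Benjamini-Hochberg and called at 0.05. "Not overlapping" means that every array of one sugar exceeded every array of the other. Members, lists and named genes (all members, the list genes of smallest p in each direction and some further list genes) were chosen with earlier results of these data known. Medians over genes carry no test. Same-numbered cultures did not deviate together (correlations -0.03, -0.02 and -0.05). The procedure was run first on simulated data, with added differences larger than that of any member here. That run does not show how well differences of the members' size are found.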

Additional observations from a re-analysis of the deposited data

How the results depend on the processing

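The count of members past the threshold was 0 in the standard fit, 2 with trended robust variances and 1 with log2(value + 16), and over all probe sets 1 became 473 and 202, and 325 among bright probe sets. Members at an unadjusted p under 0.05 numbered 14 of 45 with trended robust variances (31.1%, against 15% of all probe sets) and 12 with log2(value + 16) (26.7%, against 15.2%), where the standard fit had 7 (15.6%, against 13.1%). With the replicate number as a block that count was 5 (11.1%, against 10.7%), and 0 members passed. Over 6 fits that each dropped an array, it was 3 to 6 (3 without glucose replicate 1, 4 without fructose replicate 2). The members without overlap numbered 18 to 25 there (40% to 55.6%, against 29% to 33.3% of all probe sets). In those fits the median over members was -0.049 to 0.015 and that of the base -0.072 to -0.018. The alpha median was -0.041 after repeated quantile normalization and -0.087 after centring, where the base stood at -0.077. Of 45 members 37 kept their sign in every alternative. PSMD4 turned to -0.020 with quantile normalization and -0.021 with centring, and after centring PSMB1 stood at -0.020, PSMG2 at -0.012 and PSMG3 at -0.0070. With an array dropped, PSMB1 ranged from -0.038 to 0.067, PSMB3 from -0.013 to 0.12, PSMC2 from -0.025 to 0.023, PSMC4 from -0.072 to 0.020, PSMD4 from -0.054 to 0.053, PSME2 from -0.14 to 0.015, PSMG2 from -0.056 to 0.13 and PSMG3 from -0.0064 to 0.035. The cause was not tested. Array weights, averaged probe sets, kept controls and leaving out PSMA8 and PSMB11, the last added after seeing the data, changed no call or count by over 1.5 times.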
